A study of Mus musculus with 3 samples.

Results

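The RNAs described here are 9 small structured non-coding RNA genes, taken by symbol from the transcript names of the deposited tables: Rn7s1, Rn7s2, Rn7sk, Rmrp, Rpph1, Rny1, Rny3, Terc and Vaultrc5. They fill 10 of 55536 gene rows, because Rmrp has 2 rows. The libraries came from primary bone-marrow-derived macrophages (BMDM) of C57BL/6J mice after 30 min with 100 ng/ml Lipid A, the part of bacterial lipopolysaccharide that Toll-like receptor 4 recognises. RNA was extracted from the cytoplasm, ribosomal RNA was depleted, and 3 libraries of this 1 group were sequenced as biological replicates, named replicates 1, 2 and 3. Their labels share 1 donor record, so errors and p-values cover only how far these samples differ from each other, which may be technical. The labels record sex and age as not collected. No untreated cells and no nuclear fraction were analysed here, so no RNA is called induced, retained or depleted.

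All these RNAs act as RNA and not as messages. 7SL is the scaffold of the signal recognition particle (SRP), which holds ribosomes that make secreted proteins until they reach the endoplasmic reticulum; it is named by 2 gene copies in the annotation, Rn7s1 and Rn7s2. 7SK (Rn7sk) keeps the elongation kinase P-TEFb inactive in the nucleus until genes need it, and immediate gene induction in stimulated macrophages draws on that kinase. Rpph1 is the catalytic RNA of ribonuclease P, which trims the 5′ end of transfer RNA precursors, and Rmrp is its relative in RNase MRP, which cleaves precursor ribosomal RNA. Rny1 and Rny3 are Y RNAs, cytoplasmic partners of the Ro and La proteins. Terc holds the template that telomerase copies, and Vaultrc5 is the RNA of the vault, a large cytoplasmic ribonucleoprotein. All but Terc are transcribed by RNA polymerase III.

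Sequences are from the GENCODE M21 transcripts (mm10), with T for U, and are shown because copy number and length decide how reads of these RNAs can be counted. Rn7s1 (chr12:69159295-69159594, + strand) and Rn7s2 (chr12:69361182-69361481, − strand) are identical at all 300 positions, so no read can be placed on 1 of them. The annotated relative Rn7s6 (291 nt) differs from them by an edit distance of 45, and the longest run that it shares with Rn7s1 is 173 bases.

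Of the 331 nt of Rn7sk (chr9:78175303-78175633, − strand), the first 120 follow, with the tetramer GATC in capitals. In human 7SK a GAUC repeat in the first hairpin is part of the HEXIM1 binding site. The mouse RNA held GATC at positions 13, 42 and 64, counted from the 5′ end, and nowhere else. The tetramer is its own reverse complement, so both strands were read, and 60.4% of the 22683 annotated transcripts of 100 to 450 nt hold it.
Rn7sk: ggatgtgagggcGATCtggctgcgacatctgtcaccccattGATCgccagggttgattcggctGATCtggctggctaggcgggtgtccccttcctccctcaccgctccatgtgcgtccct

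The 2 rows of Rmrp are nested: the ribozyme row (chr4:43492788-43493058, 271 nt, − strand) lies inside the lincRNA row (chr4:43492783-43493063, 281 nt), and the 5 bases at each end that set them apart are in capitals. The first 150 of the 319 nt of Rpph1 (chr14:50807449-50807767, − strand) are given with the bases in capitals that also occur, as runs of at least 31, in transcripts of Ccnb1ip1, a gene that overlaps it on the same strand over 284 bases.
Rmrp: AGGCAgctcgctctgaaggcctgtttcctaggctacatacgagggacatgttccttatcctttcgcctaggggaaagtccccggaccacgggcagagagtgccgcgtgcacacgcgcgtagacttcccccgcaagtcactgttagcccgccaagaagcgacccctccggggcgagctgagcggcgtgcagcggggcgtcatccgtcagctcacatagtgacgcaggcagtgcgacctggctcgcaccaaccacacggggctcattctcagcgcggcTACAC
Rpph1: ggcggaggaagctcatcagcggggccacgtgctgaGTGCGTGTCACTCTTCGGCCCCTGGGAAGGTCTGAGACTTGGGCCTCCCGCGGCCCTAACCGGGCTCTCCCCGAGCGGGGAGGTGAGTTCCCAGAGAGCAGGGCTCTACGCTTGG

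The Y RNAs are the shortest members, and that length bears on how they were counted. Rny1 (chr6:47788069-47788180, − strand, 112 nt) and Rny3 (chr6:47781624-47781725, + strand, 102 nt) differed by an edit distance of 31. Capitals mark shared runs of 8 bases or more, 28 bases in each, which lie at the 5′ end, near the 3′ end and in the middle. Both end in a run of 4 T. In Terc (chr3:96414437-96414859, − strand, 423 nt), whose first 100 bases are given, TAACCCT, letters of the template that telomerase copies into telomere repeats, occurred once, at position 30, on the transcript strand and not on the other strand. Among annotated transcripts of 100 to 450 nt, 1.09% hold TAACCCT on their own strand.
Rny1: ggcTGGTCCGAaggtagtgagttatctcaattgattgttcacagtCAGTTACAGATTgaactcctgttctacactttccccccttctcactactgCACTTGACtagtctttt
Rny3: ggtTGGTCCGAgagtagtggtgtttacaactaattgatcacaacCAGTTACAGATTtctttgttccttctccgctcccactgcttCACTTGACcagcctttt
Terc: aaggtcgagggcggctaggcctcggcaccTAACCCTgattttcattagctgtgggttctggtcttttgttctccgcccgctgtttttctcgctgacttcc

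Members differed in how much of their sequence other annotated genes repeat. Of all 31-base words of Rn7s1, 87.41% occurred in transcripts of 16 genes other than Rn7s2, 4 of which are microRNA genes annotated inside Rn7s1 and Rn7s2 themselves, with 0 counts. For Rn7sk the share was 72.76%, over 25 genes, all in the same orientation. For Rpph1 it was 70.24%, over 5 genes, of which Ccnb1ip1 shared 203 of 289 words and received 1.1, 0 and 0 expected counts. For the longer Rmrp row it was 37.45%, all with Ccdc107 on the opposite strand, which received 108, 313 and 198 counts. Rny1 shared 37.8% of its words with 1 gene, Gm26168, and Rny3 and Terc shared none. Whether counting used the strand is not given in the sources used here, so reads of Rmrp and Ccdc107 cannot be told apart with certainty; the Ccdc107 counts were small beside those of Rmrp. RNA of 43.8% G and C (Rny1) and 45.1% (Rny3) stood beside 58.0% in Rn7sk, 62.3% in 7SL and 67.1% in Rpph1 and Terc.

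The tables gave 23403552, 50435201 and 35785896 expected counts on genes in replicates 1, 2 and 3. Of 10 macrophage markers, 9 averaged at least 10 TPM (counts per effective length, scaled to a total of 1000000 in each library), and Cx3cr1 had 0.143 TPM. Markers of stromal cells summed to 6689.9 counts in replicate 1 and to 32 and 45 in replicates 2 and 3. Col1a1, the stromal marker with most TPM, had 8.94, 0 and 0.04 TPM. A mean of 1 TPM was reached by 3 of 7 neutrophil markers and by 1 of 5 markers each of T and NK cells, B cells and erythroid cells. The highest of these were Il7r with 33.4 ± 7.43 TPM and S100a9 with 17.3 ± 9.92 TPM (SD, n = 3), and the globin genes Hbb-bs and Hba-a1 were at 0 TPM in every library. The nuclear long non-coding RNA Malat1 had 3877.2, 1259.3 and 6508.9 CPM (counts per 1000000 gene counts, after TMM scaling), and Neat1 had 703.8, 148.7 and 859.9 CPM.

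7SL was the most abundant member in every library. It received 2517191, 2867792 and 3620570 expected counts, which is 10.76%, 5.686% and 10.12% of all gene counts in replicates 1, 2 and 3. On the CPM scale it had 111724.5, 52700.9 and 105086.7 CPM. Replicates 1 and 3 were close to each other, and replicate 2 was the low one, by 2.12-fold against replicate 1. Its level per length was 573153 ± 65272 TPM (SD, n = 3), with 624790, 499788 and 594879 TPM. The deposited estimate split the reads evenly between the identical copies: Rn7s1 held 49.91%, 50% and 49.82% of the 7SL counts, and the posterior standard deviation of either copy's count was 1.27% to 1.91% of it. Rn7s6, whose sequence is partly the same, received 60.2, 177 and 162.1 counts, and its levels followed another order, with 2.67, 3.25 and 4.70 CPM.

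Rn7sk came second. Its 345686, 582090 and 583497 counts were 15343.1, 10697.0 and 16935.9 CPM, and its TPM were 65471, 76111 and 74099. Replicate 2 was again lowest in CPM, by 1.58-fold against replicate 3, but it was highest in TPM. TPM are shares of a fixed total in each library, and in replicate 2 the members took the smallest part of that total. TPM also divide by effective length, which for Rn7sk was shortest in replicate 2, at 101.75 nt. It was 113.46 nt in replicate 1 and 123.16 nt in replicate 3. 7SL exceeded 7SK in each library, by a log2 TPM difference of 3.25, 2.71 and 3.00, a mean of 2.99 ± 0.27 (SD, n = 3), or 7.95-fold. The exact two-sided sign-flip permutation test gave p = 0.25, the smallest that 3 libraries allow. Without division by length, the log2 count difference was 2.60.

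Of the related RNAs of RNase P and RNase MRP, Rpph1 was the higher in each library and the less variable. Rpph1 had 184268, 322084 and 311813 counts, or 8178.7, 5918.9 and 9050.3 CPM, and 42910 ± 4149 TPM (SD, n = 3). Rmrp, with its nested rows added, had 67736, 47830 and 94227 counts, or 3006.4, 879.0 and 2734.9 CPM, and 17788 ± 5805 TPM. The highest library exceeded the lowest 1.53-fold for Rpph1 and 3.42-fold for Rmrp. In log2 TPM, Rpph1 exceeded Rmrp by 0.81, 2.07 and 1.10, with replicate 2 farthest from the others. The sign-flip p was 0.25, the smallest possible. Rn7sk and Rpph1 kept nearly the same distance in every library, with a log2 TPM difference of 0.77, 0.70 and 0.77 (0.75 ± 0.04, SD, n = 3; exact sign-flip permutation p = 0.25). That difference of differences was not tested. These are values of the gene table. In the second transcript table, described below, Rn7sk exceeded Rpph1 by 0.80, 0.63 and 0.76 in log2 TPM (0.73 ± 0.09, SD, n = 3).

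**Figure D1:**
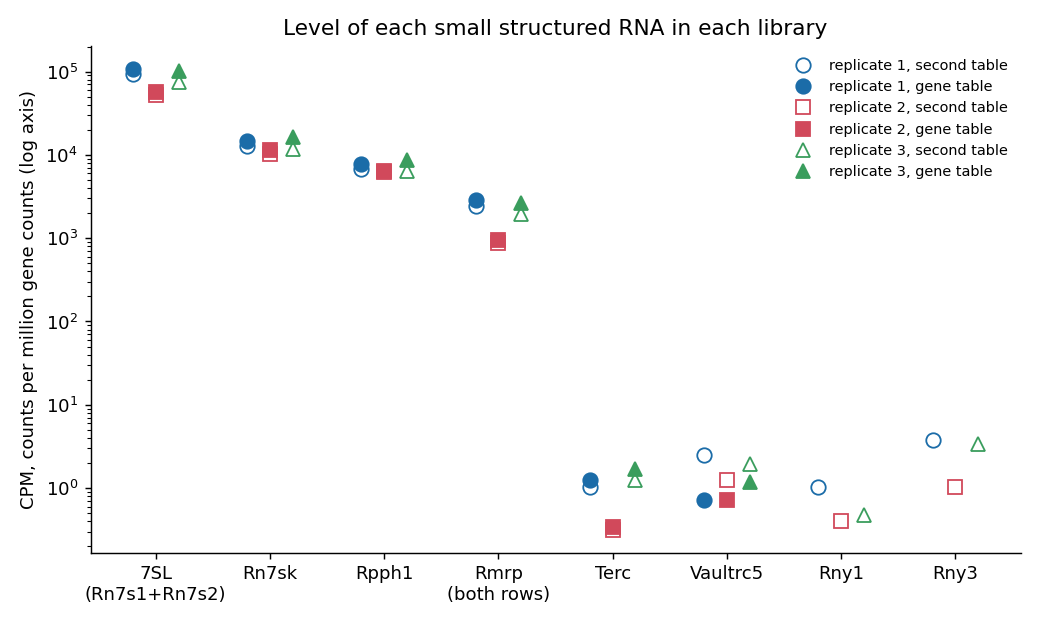
CPM of each RNA (log axis, scaled to library totals of gene counts) in each library; open symbols are the second transcript table, filled symbols the gene table. 7SL, Rn7sk, Rpph1 and Rmrp lie orders of magnitude above Terc and Vaultrc5. Rny1 and Rny3 have no filled symbol, as the gene table lists them at 0, and replicate 2 (squares) is the lowest library of every RNA.

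The remaining members were measured by few reads. Terc received 29, 17 and 60 counts. Relative to library totals that was 1.24 CPM (Wilson 95% interval 0.863 to 1.78), 0.337 CPM (0.210 to 0.540) and 1.68 CPM (1.303 to 2.158) in replicates 1, 2 and 3, so replicate 2 lay below the intervals of the other libraries. Its level was 3.11, 1.22 and 4.44 TPM. Vaultrc5 (chr18:36801866-36802008, + strand, 143 nt) received 17, 36 and 42 counts, or 0.726 CPM (0.453 to 1.16), 0.714 CPM (0.516 to 0.988) and 1.17 CPM (0.868 to 1.59), intervals that overlap. Such intervals account for counting error alone, because PCR copies of a molecule were not told apart. GGTTCGA, a form of the internal B box with which some polymerase III genes are recognised, occurs 2 times in Vaultrc5 on the transcript strand, at positions 65 and 110. It occurs in 0.43% of annotated transcripts of 100 to 450 nt. On neither strand was it found in Rny1, Rny3, Rn7s1 or Rpph1, the other members searched for it.

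TPM divide by effective length, the number of positions at which a fragment of the library can start. In the gene table long genes lost 224, 240 and 212 nt of length in replicates 1, 2 and 3. Terc kept 200.41, 185.75 and 211.51 effective nt. Rn7s1 kept 86.58, 76.34 and 95.19 of 300 nt. Vaultrc5 kept 3.32, 1.85 and 3.09 nt, so that its counts, similar in number to those of Terc, became 110.09, 258.54 and 212.68 TPM. In replicate 2 Vaultrc5 had the lowest CPM and the highest TPM of the 3 libraries.

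Rny1 and Rny3 had an effective length of 0 in every library and were listed at 0. An effective length of 0 was given to 4625, 5436 and 4781 genes in all, the longest of 124, 133 and 126 nt, and together these held 2.54, 2.21 and 41.74 counts. The 0 of the Y RNAs is therefore no measured level. The second transcript table, made from the reads and a transcript index, gave Rny1 30, 23 and 24 counts and Rny3 109, 59 and 169. That is 1.04 (Wilson 95% interval 0.728 to 1.48), 0.405 (0.270 to 0.608) and 0.481 CPM (0.323 to 0.716) for Rny1, and 3.77 (3.13 to 4.55), 1.04 (0.806 to 1.34) and 3.39 CPM (2.91 to 3.94) for Rny3. Rny3 was above Rny1 in each library, and replicate 2 was its low one. Both RNAs are shorter than the fragment range recorded for the libraries, and what that did to their counts was not tested.

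**Figure D2:**
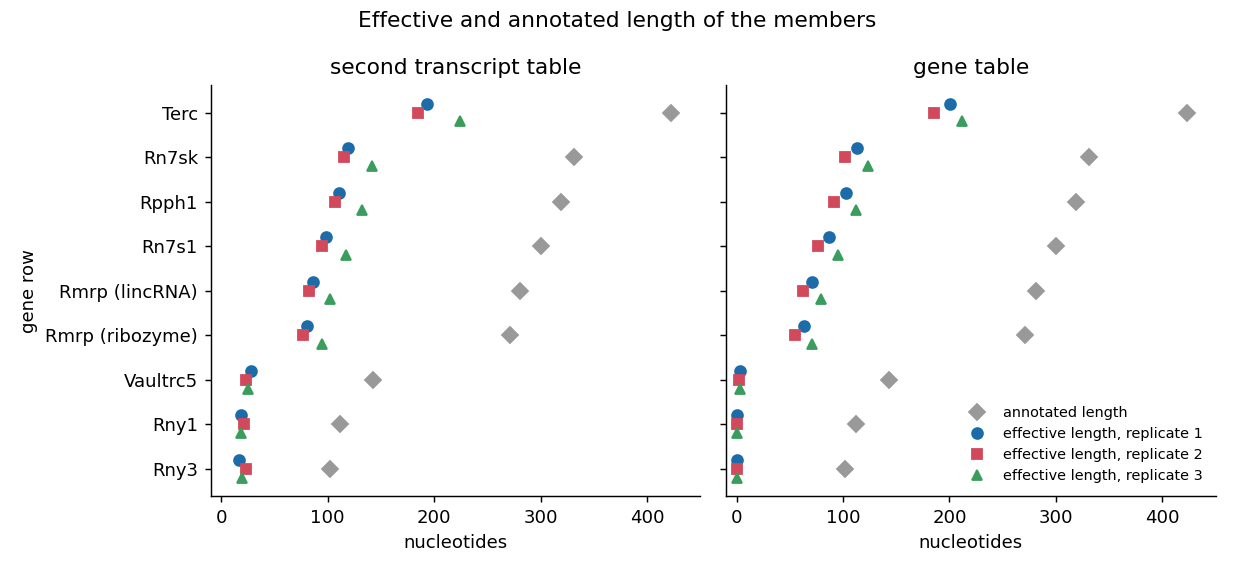
Annotated length (grey diamonds) and effective length (coloured symbols, 1 per library) of each gene row, in nucleotides, in the second transcript table on the left and the gene table on the right. In the gene table Rny1 and Rny3 sit at 0 and Vaultrc5 between 1.85 and 3.32 nt; in the second table all 3 sit between 17.1 and 27.6 nt.

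Together the members held 13.31%, 7.574% and 12.88% of gene counts in replicates 1, 2 and 3 (11.26 ± 3.20%, SD, n = 3; Wilson 95% half-widths of at most 0.0138 percentage points). Per length the share was far larger, 75.09%, 63.41% and 73.29% of all TPM. If the members were left out of the TPM total, every other gene's TPM would be 1.32, 1.43 and 1.16 times higher in the second transcript table, against 4.01, 2.73 and 3.74 times in the gene table. The factor of replicate 2 was the highest of the 3 in the second table and the lowest in the gene table. Within the members' own counts, 7SL made up 80.81%, 75.08% and 78.53% and Rn7sk 11.1%, 15.24% and 12.66%. Rpph1 made up 5.92%, 8.43% and 6.76% and Rmrp 2.17%, 1.25% and 2.04%. Replicate 2 thus had the smallest share of 7SL and Rmrp and the largest of Rn7sk and Rpph1.

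The second transcript table was close to the gene table in counts and far from it in TPM. For 7SL it gave 2672900, 2966760 and 3776480 counts, divided equally between Rn7s1 and Rn7s2. Its counts exceeded those of the gene table by a mean log2 difference over libraries of 0.03 to 0.09, and of 0.004 to 0.12 in single libraries, for Rn7s1, Rn7s2, Rn7sk, Rmrp, Rpph1 and Terc. In log2 TPM the same RNAs were lower in the second table, with mean differences of −1.47 (Terc) to −1.90 (Rmrp). For Rn7sk the second table gave 22759, 37651 and 14204 TPM, against 65471, 76111 and 74099 TPM in the gene table. Vaultrc5 had more counts in the second table, with 72, 70 and 98 against 17, 36 and 42, but fewer TPM, with 19.2, 22.1 and 13.2 TPM against 110.09, 258.54 and 212.68. All 7 members with TPM above 0 in both tables were lower in the second table in 3 of 3 libraries. The 7 include the identical copies Rn7s1 and Rn7s2. Each had p = 0.25 by exact two-sided sign-flip permutation, also after adjustment over the 7, the smallest value that 3 libraries allow. The share of all genes that were lower was not computed, so the count is not read as particular to the members. Outside the members, Malat1 was lower too, with 190.2, 157.1 and 159.1 TPM against 472.08, 302.42 and 787.89, and the short rows named below were higher.

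Other RNAs moved with that difference. In the second transcript table, the 4 short rows Gm12895 and Gm12896 (processed pseudogenes of 226 nt) and Gm24270 and Gm24245 (microRNA genes of 57 nt) held 53.36%, 40.3% and 70.33% of TPM and 9.73%, 4.07% and 21.3% of counts, against 0 in the gene table. In the gene table Gm24270 and Gm24245 had an effective length of 0 in every library, so their 0 is no measured level. Gm12895 and Gm12896 had effective lengths of 27.33 to 37.78 nt in it and still received 0 counts. None of the 4 rows shares a 31-base word with any member. With these rows left out and the second table rescaled, an alternative chosen after seeing the data, the median log2 difference over the members was −0.52 instead of −1.72. The order of libraries changed too: the members' share of TPM was 24.28%, 29.91% and 13.69% in the second table, with replicate 2 highest, against 75.09%, 63.41% and 73.29% in the gene table, with replicate 2 lowest. The share of counts was 11.46%, 6.96% and 9.59% in the second table, lowest in replicate 2 as in the gene table.

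**Figure D3:**
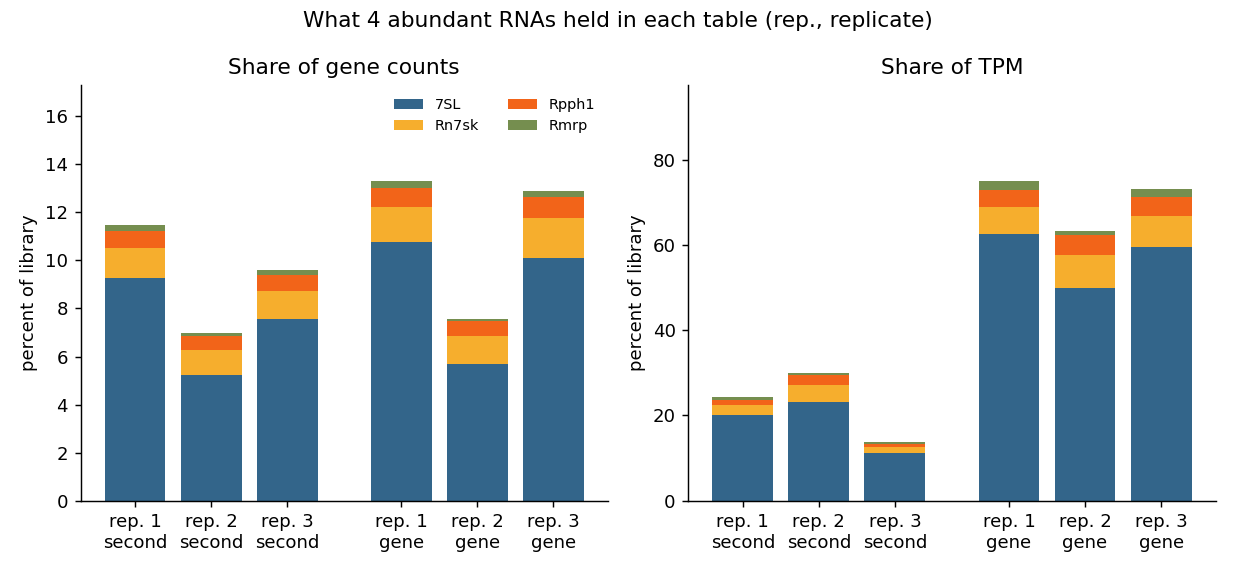
Percent of gene counts (left) and of TPM (right) held by 7SL, Rn7sk, Rpph1 and Rmrp in each library, with the second transcript table left of the gene table in each panel. The shares of counts run from 6.96% to 13.31% over both tables, whereas those of TPM reach 75.09% in the gene table and at most 29.91% in the second.

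How the nested Rmrp rows shared their reads also depended on the table. The ribozyme row took 45.36%, 39.6% and 65.44% of the Rmrp counts in the second table, against 61.46%, 65.97% and 71.32% in the gene table. The sum of the rows differed by little, with 70948, 48990 and 97846 counts in the second table and 67736, 47830 and 94227 in the gene table. Only the sum is used here as the level of Rmrp.

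Whether the 3 libraries differed by more than read sampling was asked of each gene by a chi-square test of its rounded expected counts against Poisson sampling. P-values were adjusted by the Benjamini-Hochberg method over all genes that averaged at least 10 counts. Of 13237 genes, 8842 passed at 0.05, which is 66.8%. All 7 members tested passed, and Rny1 and Rny3 could not be tested. With the identical 7SL copies and the nested Rmrp rows summed, 6 of 6 passed, beside 66.8% of 13235 genes. That alternative was chosen after seeing the data. At depths this large passing is common, and a count of 7 of 7 says little about these RNAs. The smallest statistics were those of Vaultrc5 (chi-square 8.01, adjusted p = 0.0287) and Terc (chi-square 48.6, adjusted p = 1.15e-10). With the second table, 9 of 9 members passed, beside 70.1% of the 15513 genes tested. Without replicate 1, 7 of 7 members passed, beside 55.4% of genes. Vaultrc5 did not pass with scaling by library totals (adjusted p = 0.0737) or without replicate 3 (adjusted p = 0.738, where 51.2% of genes passed).

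The size of the spread differed between the members, and their order depended on the measure. The biological coefficient of variation estimated by edgeR was 18.3% for Rpph1, 19.2% for Rn7sk, 27.3% for Rn7s1, 39.5% and 40.8% for the Rmrp rows, 44.8% for Vaultrc5 and 63.2% for Terc. Over all 13237 genes the median was 17.3%. The highest library exceeded the lowest by 5.57-fold for Terc, 3.42-fold for Rmrp and 2.12-fold for 7SL. For Vaultrc5, Rn7sk and Rpph1 it did so by 1.84-fold, 1.58-fold and 1.53-fold. The median was 1.27-fold over 13136 genes with counts in every library. Vaultrc5, measured by few counts, thus stood above Rn7s1 in the coefficient of variation but below 7SL in this ratio.

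Replicate 2 was the lowest library on the CPM scale for the 7 members with counts in the gene table, under the 4 scalings tried (TMM, DESeq2 size factors, library totals and totals of nuclear protein-coding genes). It was also the lowest for all 9 in the second table, scaled to library totals. Both counts include the identical copies Rn7s1 and Rn7s2. Over all genes tested it was the lowest library for 37.6% in TMM-scaled counts of the gene table. That share was not computed for the other scalings or for the second table. The highest library differed: replicate 1 for 7SL and Rmrp, replicate 3 for Rn7sk, Rpph1, Terc and Vaultrc5. In the second table Rn7sk, Rpph1 and Vaultrc5 were highest in replicate 1 instead. Scaling by library totals moved all genes by 0.11 (log2) in replicate 2 relative to TMM and by less in the others. Without replicate 2, the only library left out that changed the count of genes by over 1.5 times, 4334 of 13093 genes passed (33.1%) and 5 of 7 members did. Terc (adjusted p = 0.326) and Vaultrc5 (adjusted p = 0.197) no longer passed.

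The nuclear RNAs Malat1 and Neat1 were also lowest in replicate 2. From the mean of the 3 libraries, replicates 1, 2 and 3 deviated in log2 CPM by 0.39, −0.69 and 0.30 for 7SL and by 0.13, −0.39 and 0.27 for Rn7sk. Rpph1 deviated by 0.11, −0.36 and 0.25, and Rmrp by 0.64, −1.14 and 0.50. Malat1 deviated by 0.29, −1.33 and 1.04 and Neat1 by 0.65, −1.59 and 0.94. Terc deviated by 0.53, −1.49 and 0.96 and Vaultrc5 by −0.15, −0.36 and 0.52. The part that carry-over of nuclear RNA, depth or the stromal markers of replicate 1 had in these differences was not tested. In such bulk samples, fewer cells of a type and less RNA per cell cannot be told apart.

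**Figure D4:**
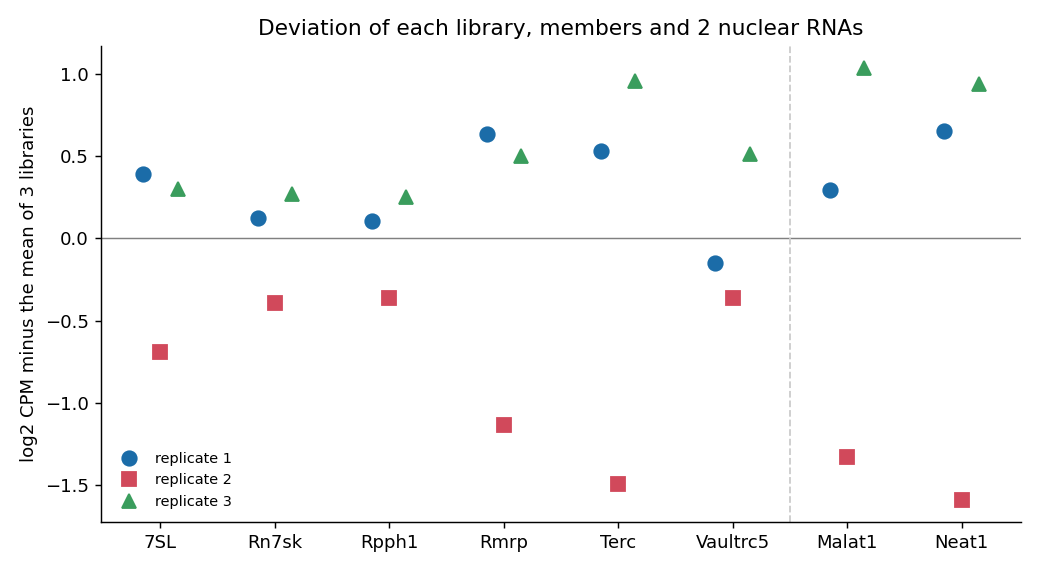
Deviation of each library from the mean of the 3 libraries, in log2 CPM after TMM scaling, for 6 members (left of the dashed line) and for Malat1 and Neat1. Replicate 2 lies lowest for every RNA shown, from −0.36 for Rpph1 to −1.59 for Neat1.

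The genes whose 3 library values were most like a member's were taken as those with the smallest root mean square difference of log2 CPM deviations among genes that averaged at least 100 counts, 10063 or 10064 genes in each search. For 7SL these were Agrn (0.0116), H2-Ab1 (0.0161) and Gm49774 (0.0176). For Rn7sk they were Rai1 (0.0020), Rhbdd3 (0.0069) and Tmem205 (0.0073), and for Rpph1 Emilin1 (0.0015), Timeless (0.0076) and Sfi1 (0.0082). The nearest to Rmrp were farther off, with Gm44292 at 0.0270, Gm17275 at 0.0418 and Gm10645 at 0.0793. Likeness over 3 libraries is a description of these libraries.

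The messenger RNAs of the proteins that these RNAs work with took a small part of each library. The 7 lists of partners held 68 genes, of which 65 averaged at least 1 TPM, and the whole of them made up 0.204%, 0.237% and 0.209% of gene counts in replicates 1, 2 and 3. Over all genes, 10033 reached 1 TPM, with a median of 7.54 TPM among them. Of the 66 partners tested between libraries, 42 passed, beside 66.8% of all genes. The passing counts of single lists below are to be read beside that share. In TPM, replicate 2 was the highest library for 61 of the 66. In CPM it was the highest for 32 and the lowest for 19. Over all genes tested, replicate 2 was lowest in CPM for 37.6%. The share of all genes for which it was highest was computed neither in CPM nor in TPM. In the gene table the members held the smallest share of TPM in replicate 2, so the TPM order is not read as a difference in messenger RNA.

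All 10 SRP genes had a mean above 1 TPM, with a median of 16.5 TPM, and 6 passed the test. The highest were Srp14 (50.5 ± 12.2 TPM) and Srp9 (24.0 ± 9.05 TPM), which bind the Alu domain of 7SL together, and Srpr (21.6 ± 6.76 TPM), which encodes the alpha subunit of the SRP receptor. The lowest was the beta subunit, Srprb (7.34 ± 1.26 TPM). Of the 7 genes of the 7SK particle and P-TEFb, 6 passed. Cdk9, the kinase itself, had 28.8 ± 5.77 TPM, its cyclin Ccnt1 9.61 ± 1.14 TPM and the inhibitor Hexim1 10.1 ± 3.04 TPM. Hexim2, the other inhibitor, was lowest at 0.65 ± 0.26 TPM. All errors here are SD over 3 libraries.

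The 11 protein genes of RNase P and MRP were low, with a median of 4.11 TPM and none at 10 TPM; 6 of the 10 tested passed. The highest were Rpp21 (7.66 ± 2.06 TPM), Pop5 (6.45 ± 1.28 TPM) and Pop7 (5.20 ± 0.96 TPM), and the lowest was Rpp25 (0.037 ± 0.031 TPM). Ssb, the La protein that binds the 3′ ends of polymerase III transcripts, had 30.4 ± 13.6 TPM, and Trove2, the Ro protein, 3.05 ± 0.52 TPM; both passed. Among 7 telomerase genes, 5 of the 6 tested passed. Nhp2 (13.5 ± 3.65 TPM), Nop10 (7.30 ± 2.30 TPM) and Gar1 (6.17 ± 2.75 TPM), proteins of H/ACA particles in general, were highest. The catalytic subunit Tert was listed at 0 TPM, with 1 count in replicate 3. The vault genes Tep1 (32.7 ± 5.41 TPM), Mvp, the major vault protein (30.98 ± 5.26 TPM), and Parp4 (10.5 ± 1.49 TPM) were the list with the highest median, 30.98 TPM, and 2 of the 3 passed. Errors are SD over 3 libraries.

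All 28 genes of RNA polymerase III and its factors were above 1 TPM, with a median of 3.83 TPM, and 15 passed. Maf1, the repressor of the polymerase, was highest at 20.8 ± 7.19 TPM. Snapc5, a subunit of the complex that starts transcription of genes such as Rn7sk from outside the transcribed part, had 15.5 ± 8.94 TPM, and Polr3gl, a polymerase subunit, 11.97 ± 5.44 TPM. Snapc3 was lowest at 1.26 ± 0.23 TPM (SD, n = 3).

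**Figure D5:**
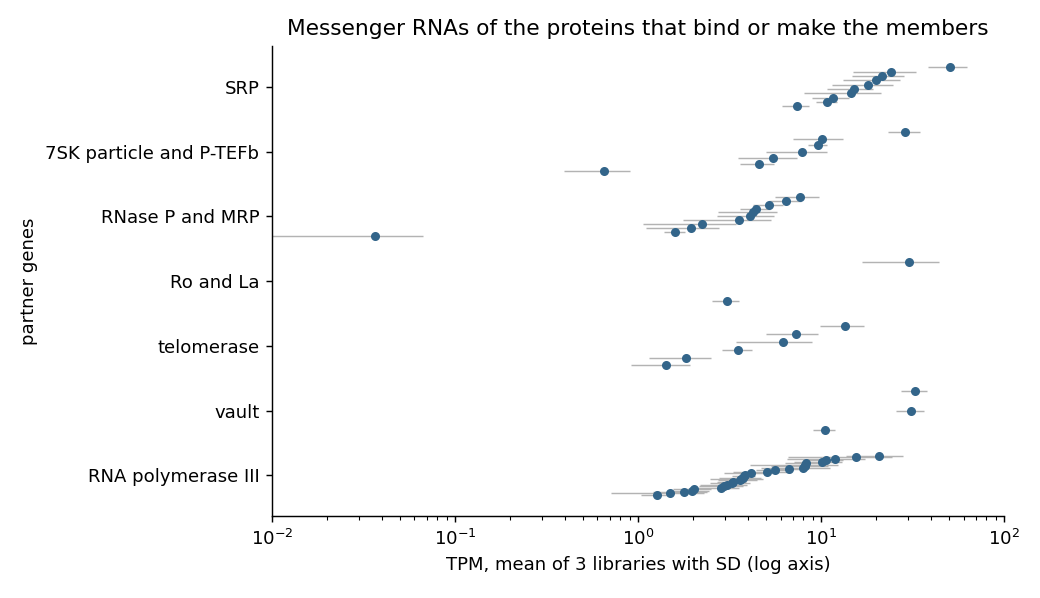
Mean TPM over 3 libraries (log axis) of each partner gene, with bars of 1 SD, grouped by the RNA particle or enzyme the protein belongs to; Tert, listed at 0, is not drawn. SRP and vault genes lie mostly at 10 TPM or above, and genes of RNase P and MRP all lie below 10 TPM.

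Other misc_RNA, ribozyme, small nuclear, small nucleolar and small Cajal body RNAs held few counts beside 7SL, Rn7sk, Rpph1 and Rmrp in both tables. How far the fragment range recorded for the libraries left out the shorter of them was not tested. MicroRNA genes are not in these classes. In the second table Gm24270 and Gm24245 each received 274811, 162236 and 414750 counts in replicates 1, 2 and 3. Outside the members, the 555 misc_RNA genes received 1520.1, 831.3 and 1572.7 counts in the second table in replicates 1, 2 and 3, against 134.1, 224.1 and 247.1 in the gene table, where Rn7s6, Gm26035 and Gm26461 took most. Small nuclear RNA genes, the RNAs of the spliceosome and their copies, received 8099, 5242.9 and 9156 counts in the second table, against 5469.8, 3619 and 6381 in the gene table. There 1089 of the 1385 had an effective length of 0 in all libraries, so that their 0 is no measured level. Of the whole class, 295 genes had counts in the second table, against 41 in the gene table. An effective length of 0 in all libraries was also given to 667 of 1507 small nucleolar RNA genes and 100 of 555 misc_RNA genes. Classes are those of the annotation, which lists Scarna10 as a small nucleolar RNA. Small Cajal body RNAs received 2999.9, 4540.8 and 5905 counts in the second table, against 2790.8, 3537 and 5552.8 in the gene table. In the gene table they were led by Gm22009 (98.6, 54.0 and 127.3 CPM), Scarna2 (18.3, 8.53 and 25.2 CPM) and Gm25395 (2.13, 0.662 and 3.54 CPM). Small nucleolar RNAs received 2535.1, 2066.3 and 3198.1 counts in the second table, against 1414.5, 1277.1 and 1785.3 in the gene table, where they were led by Scarna10 (22.6, 19.0 and 23.5 CPM), Gm23547 (5.60, 1.93 and 4.38 CPM) and Gm23262 (2.40, 0.404 and 3.57 CPM). The 3 highest genes of the small nuclear class were Gm25939, Gm24497 and Gm22513, and the first 2, of 191 nt each, were split unevenly between libraries in the gene table: Gm24497 had 476, 584.4 and 682.7 counts in the second table, against 3.3, 319.7 and 1151.9 in the gene table. Of the 20 ribozyme genes outside Rmrp and Rpph1, 6 had counts in the second table, against 1 in the gene table, Gm26464 with 1, 0 and 1.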

How the data were processed

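Cytoplasmic total RNA of 3 libraries of 1 group was analysed. The authors deposited expected counts and estimated counts per gene or transcript, and TPM values, which are counts per effective length rescaled to a fixed library total. The gene table has the layout of RSEM and the second transcript table that of kallisto. Per the deposited readme files, both use mm10 and GENCODE M21. The aligner, the quantifiers and their versions were not given in the sources used here. The 26345 rows of 81881 that are not genes held 0.462%, 0.109% and 0.0969% of counts in replicates 1, 2 and 3 and were left out.

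Second-table values were summed per gene. Expected counts were rounded for the between-library chi-square test (mean count of 10 or more, Benjamini-Hochberg threshold 0.05). The test was tried only on counts simulated by Poisson sampling. That trial says nothing about replicates that vary by more than Poisson sampling. TMM factors and dispersions were computed with edgeR 4.0.16 (R 4.3.3), and alternative size factors with DESeq2 1.42.0. Differences within libraries had exact sign-flip permutation tests. Deviations used a prior count of 0.5. Shares carry Wilson 95% intervals. The rest was done in Python 3.11.15 with scipy 1.17.1.

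Members and lists were chosen with earlier results of these data known. Named genes were all members, the 3 highest and the lowest gene of each partner list by mean TPM, the 3 highest of each small RNA class by mean count, the 3 genes most like each abundant member, and Malat1 and Neat1. The listed Srpra is named Srpr in the annotation. The 4 short rows of the second table, Gm26168, Ccdc107 and Ccnb1ip1 were named after their values were seen. The values of 2 marker genes and 1 sequence are not reported here. Alternatives were other scalings, lengths, filters, pseudocounts and tables, and leaving out each library.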

Additional observations from a re-analysis of the deposited data

How the results depend on the processing

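No paired analysis was possible because there is 1 group. The summed level of the members averaged 705941 TPM. It was 226300 TPM in the second transcript table, 474511 TPM with annotated length, and 494433 TPM in the second table rescaled without 4 other RNAs, the last chosen after seeing the data. Leaving out each replicate gave 683486 to 741879 TPM. The mean share of counts was 11.26%, and 9.34% in the second table. It was 10.71% in the second table without the 4 other RNAs, also chosen after seeing the data. Against nuclear protein-coding counts, a total without the members, the ratio was 13.09 per 100 counts and is not a share. Leaving out each replicate gave mean shares of 10.23% to 13.1%. Genes passing the between-library test numbered 8842, and 4334 to 7395 on leaving out each replicate, with fewest without replicate 2. Members passing numbered 7, 5 and 6 without replicates 1, 2 and 3, beside 55.4%, 33.1% and 51.2% of all genes tested. The 7SL minus 7SK difference was 2.60 to 2.99 under other scales and 2.86 to 3.13 on leaving out each replicate. The median second-minus-gene difference was −0.25 to −1.72 in log2 TPM, log2 CPM and the rescaled table, and −1.37 to −2.03 on leaving out each replicate. For Vaultrc5 that difference turned from −3.36 in log2 TPM to 1.10 in log2 CPM of library totals. Its effective length in the second table was 23.4 to 27.6 nt, against 1.85 to 3.32 nt in the gene table. In log2 counts, a scale chosen after seeing the data that sets no library total, the median was 0.065 and every member with counts in both tables turned positive: Rn7s1 0.068, Rn7s2 0.063, Rn7sk 0.034, Rmrp 0.052, Rpph1 0.089, Terc 0.067 and Vaultrc5 1.421. Of all recomputed values, 100 kept their side and direction or moved by less than the spread between libraries, 20 moved by more and 9 reversed. Few counts limit Terc, Vaultrc5, Rny1 and Rny3, and the 0 of the Y RNAs in the gene table sets no limit on their level. The fragment range recorded for all libraries starts above the annotated lengths of Vaultrc5, Rny1 and Rny3. Its part in the low counts of these RNAs, and in their rank among the members, was not tested.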
